A study of Mus musculus with 4 samples.

Results

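Keratins are the intermediate filament proteins of epithelial cells. The keratin family was taken as every gene of the deposited table whose symbol is Krt followed by digits and at most 1 letter, without the Krtap and Krtcap genes, and held 52 of the 24394 genes used. Of these, 28 were type I and 24 were type II. The table gives RNA levels as FPKM, fragments scaled to transcript length and to the mapped fragments of the library, a unit that allows levels of different genes to be set side by side. It covers 4 C57BL/6 mice of 8 weeks of age, namely WT-139 and WT-140 with the Usp25+/+ genotype and KO-826 and KO-850 with the Usp25-/- genotype (2 mice each). Values of single mice are listed in that order throughout, as Usp25+/+ against Usp25-/-. The gene Usp25 codes for a protease that removes ubiquitin from proteins. Each of the 4 mice, controls included, had received dextran sulfate sodium (DSS), a polymer that injures the gut lining, at 2.5% for 5 days and then plain water for 2 days. There was no group without DSS, so no level in an uninjured mouse can be given. Nothing in the labels gives the litter, the sex, the kind of Usp25 allele or the tissues in which it was lost.

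The libraries are labelled as distal colon, and the markers of that tissue were largely absent. Of 12 colon epithelial markers, 8 were below 1 FPKM in every mouse, and Aqp8, Zg16 and Cdx1 were at 0 in all 4. Their summed level was 12.6 to 14.1 FPKM in Usp25+/+ and 40.8 to 141 FPKM in Usp25-/-, carried mostly by Lgals4 and by the keratin Krt20. Alveolar epithelial markers, led by the surfactant genes Sftpb and Sftpc, summed to 1704 to 4145 FPKM in Usp25+/+ and 4921 to 5296 FPKM in Usp25-/-. Airway markers, led by Scgb1a1 and Bpifa1, summed to 729 to 2737 and 393 to 853 FPKM. The keratins are therefore described as those of libraries labelled colon, with no cell type assigned to them. In bulk tissue RNA, fewer cells of a type and less RNA per cell cannot be told apart.

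Usp25 followed the genotype labels, with 38.5 and 16.6 FPKM in mice WT-139 and WT-140 against 2.65 and 1.71 FPKM in mice KO-826 and KO-850. Its log2 difference was -3.07 ± 0.47 (SE), with a Benjamini-Hochberg adjusted p of 0.968 by limma. Without mouse WT-140 the adjusted p by limma was 0.0341, with a log2 difference of -3.65. The depth of each library is unknown. A rough guide from the smallest regular step of FPKM times transcript length put mouse WT-139 at 1.25 times the depth of mouse WT-140, mouse KO-826 at 0.794 times and mouse KO-850 at 0.742 times. Between 15.8% (WT-139) and 36.1% (WT-140) of all genes were at 0 in a mouse. Mouse WT-139 also stood apart in neutrophil genes, which summed to 42739 FPKM there and to between 786 and 2207 FPKM in the other 3 mice.

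A keratin filament is built from obligate pairs of 1 type I and 1 type II protein, and each kind of epithelium uses its own pairs. Simple epithelia, the single-layered linings of gut, lung, glands and body cavities, use Krt8 with Krt18 and add Krt7, Krt19 or Krt20. The basal layer of stratified epithelia uses Krt5 with Krt14, wounded or hyperproliferative epidermis switches on Krt6 with Krt16 and Krt17, and cells leaving the basal layer move to pairs such as Krt1 with Krt10 or Krt4 with Krt13. Hair shafts and the sheath around them use keratins of their own. In the intestine, keratins protect cells from mechanical and toxic stress, and mice lacking Krt8 can develop colitis. These classes order the results that follow.

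The type I and type II genes lie in a cluster each, and 50 of the 52 were placed in the mm9 annotation (Krt72 and Krt85 were not). On chromosome 11 there were 27, all type I, between chr11:99094075-100131185. On chromosome 15 there were 23 between chr15:101177875-101862457, of which 22 were type II and the last was Krt18, the type I partner of Krt8. Promoter windows of 300 bases, from 250 before to 50 after the transcript start, were found in RefSeq (GRCm38.p6) for 35 keratins, in 36 windows. In 29 of the 36 the start lies within 50 bases of the RefSeq gene's own start, and the other 7, that of Krt14 among them, belong to transcripts that begin further inside the gene. The windows of 4 simple keratins that were highest in the same mouse and of the basal keratin Krt5, which was high in another mouse, are given 5′ to 3′ on the gene's strand. Capitals mark matches on either strand to 3 short motifs. The first is the core of the TATA box, written TATAAA. The second, GGGCGG, is the core of the site that the general activator Sp1 binds. The third is the core of the AP-1 site of stress-responsive genes, written TGANTCA.

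Krt8 (chr15:102004293-102004592, minus strand): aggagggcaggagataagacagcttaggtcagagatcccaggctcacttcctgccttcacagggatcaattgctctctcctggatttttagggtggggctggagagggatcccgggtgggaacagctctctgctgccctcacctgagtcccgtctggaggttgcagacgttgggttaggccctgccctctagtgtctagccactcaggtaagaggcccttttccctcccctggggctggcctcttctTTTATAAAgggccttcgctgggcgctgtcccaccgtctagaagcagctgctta
Krt18 (chr15:102027966-102028265, plus strand): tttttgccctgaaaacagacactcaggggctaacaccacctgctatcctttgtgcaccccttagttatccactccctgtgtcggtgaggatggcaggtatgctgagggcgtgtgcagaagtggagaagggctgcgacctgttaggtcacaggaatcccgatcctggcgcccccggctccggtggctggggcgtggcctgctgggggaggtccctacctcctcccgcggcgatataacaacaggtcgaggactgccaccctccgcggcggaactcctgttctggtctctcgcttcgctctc
Krt7 (chr15:101412153-101412452, plus strand): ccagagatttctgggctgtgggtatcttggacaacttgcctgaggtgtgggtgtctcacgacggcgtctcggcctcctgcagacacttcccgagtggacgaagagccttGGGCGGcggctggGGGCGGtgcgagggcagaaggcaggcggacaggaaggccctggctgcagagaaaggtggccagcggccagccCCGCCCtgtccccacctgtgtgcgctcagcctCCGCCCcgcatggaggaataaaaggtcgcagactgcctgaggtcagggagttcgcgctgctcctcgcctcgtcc
Krt20 (chr11:99438104-99438403, minus strand): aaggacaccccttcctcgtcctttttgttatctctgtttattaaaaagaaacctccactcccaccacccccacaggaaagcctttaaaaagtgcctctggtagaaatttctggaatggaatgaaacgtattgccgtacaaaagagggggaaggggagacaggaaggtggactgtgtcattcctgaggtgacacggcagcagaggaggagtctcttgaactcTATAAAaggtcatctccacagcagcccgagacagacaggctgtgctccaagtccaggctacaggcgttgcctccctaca
Krt5 (chr15:101712856-101713155, minus strand): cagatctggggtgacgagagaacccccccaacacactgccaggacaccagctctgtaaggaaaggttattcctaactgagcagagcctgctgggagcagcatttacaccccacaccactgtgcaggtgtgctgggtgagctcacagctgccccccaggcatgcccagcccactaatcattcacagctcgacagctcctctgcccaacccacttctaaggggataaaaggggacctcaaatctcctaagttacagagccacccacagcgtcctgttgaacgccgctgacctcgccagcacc

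These windows differed among the simple keratins. TATAAA began at position -29 from the annotated start in Krt20. In Krt8 a forward and a reverse match overlap, and the stretch they cover began at -3 with the reverse match. Krt7 held 4 matches to GGGCGG and none to TATAAA, in a window of 66.3% GC, and Krt18 held none of the motifs at 61.3% GC. Krt5 held none of the 3 motifs in this window. Over the family, TATAAA was found in 19 of 36 windows, against 13.6% of the 32851 windows of all genes, and GGGCGG in 2 of 36, against 35.7%. Of the 29 windows at the gene's own start, 17 held TATAAA. The TATAAA matches were spread unevenly over the classes, with 7 of 8 inner root sheath windows and 6 of 9 hair shaft windows but 2 of 4 simple windows. These counts take exact matches at any position, such as -203 in Krt72 and 19 in Krt42. Near matches, such as gataaa in Krt5, were not counted. TGANTCA was found in both windows of Krt13 and in no other keratin window, against 7.81% of all windows. A match is a stretch of letters, and no binding was measured here.

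The simple keratins made up most of the keratin RNA in every mouse and were higher in both Usp25-/- mice than in both Usp25+/+ mice. They summed to 865 and 781 FPKM in mice WT-139 and WT-140 and to 3528 and 1338 FPKM in mice KO-826 and KO-850. That was 88.9% of keratin FPKM in mouse WT-139 and 95.9% to 96.8% in the others. The group means were 823 ± 59.3 and 2433 ± 1548 FPKM (SD, n = 2), a ratio of 2.96. The 2 Usp25-/- mice differed from each other by more than the lower of them differed from the Usp25+/+ mice.

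Krt8, the type II keratin of all simple epithelia (chr15:101827142-101834773 in mm9, minus strand), was at 252 and 247 FPKM in the Usp25+/+ mice and at 1067 and 382 FPKM in mice KO-826 and KO-850. Its partner Krt18 (chr15:101858647-101862457, plus strand) was at 215 and 233 against 1030 and 444 FPKM. For both genes the Usp25+/+ mice were close together, and mouse KO-826 stood far above mouse KO-850. Ordered by FPKM within each mouse, Krt8 ranked 322nd and 305th of all genes in mice WT-139 and WT-140, 63rd in mouse KO-826 and 186th in mouse KO-850. The log2 difference, on the log2(FPKM + 1) scale, was 1.35 ± 0.57 (SE) for Krt8 and 1.59 ± 0.50 for Krt18. Neither passed the threshold, with limma's adjusted p at 0.968 for each.

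Krt7, a type II keratin of ducts, lung and mesothelium (chr15:101241474-101260744, plus strand), was at 183 and 150 against 652 and 252 FPKM. Krt19, a small type I keratin of ducts and simple epithelia (chr11:100002124-100009979, minus strand), was at 211 and 149 against 727 and 252 FPKM. Although they lie on different chromosomes, the 2 genes were near 1 to 1 in every mouse, with a Krt7 to Krt19 ratio of 0.869 and 1.01 against 0.896 and 1.00. The Krt8 to Krt18 ratio was 1.17 and 1.06 against 1.04 and 0.860. Krt7 differed between genotypes by 1.29 ± 0.54 and Krt19 by 1.27 ± 0.59 (log2 ± SE), both at an adjusted p of 0.968 by limma.

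Krt20, a type I keratin of differentiated intestinal and gastric surface cells and of the urothelium (chr11:99289717-99299464, minus strand), was the lowest of the 5 simple keratins. It was at 4.31 and 3.11 FPKM in Usp25+/+, at 52.4 FPKM in mouse KO-826 and at 7.35 FPKM in mouse KO-850. The 2 groups did not overlap, and mouse KO-826 was 7.12 times mouse KO-850, against 2.32 to 2.88 times for the other 4 simple keratins. As a share of Krt19, Krt20 was 2.05% and 2.09% against 7.20% and 2.91%, so the share was highest in mouse KO-826. Its log2 difference was 2.18 ± 0.88 (SE), with an adjusted p of 0.968 by limma. Gastric epithelial markers, led by Tff1, Gkn2 and Gkn1, summed to 129 and 160 FPKM in Usp25+/+ and to 2711 and 1045 FPKM in mice KO-826 and KO-850. Among them Atp4b was at 0 in all 4 mice and 6 of the 10 were below 1 FPKM in every mouse. The part of such cells in the Krt20 level was not tested.

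Krt23, a type I keratin of ductal and gut epithelia (chr11:99339288-99354451, minus strand), had the same order of mice as Krt7, Krt19 and Krt20. It was at 22.0 and 16.6 against 89.8 and 37.1 FPKM. Its level was 7.16% to 10.2% of Krt18 in the 4 mice. The log2 difference was 1.55 ± 0.49 (SE), with an adjusted p of 0.968 by limma. Krt80, a type II keratin of differentiating epithelia at the other end of the type II cluster from Krt8, had another order. It was at 5.12 and 13.0 FPKM in Usp25+/+ and 5.87 and 8.93 FPKM in Usp25-/-, so the Usp25-/- mice lay between the Usp25+/+ mice. Its log2 difference was -0.16 ± 0.49 (SE), with a limma adjusted p of 0.982.

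**Figure D1:**
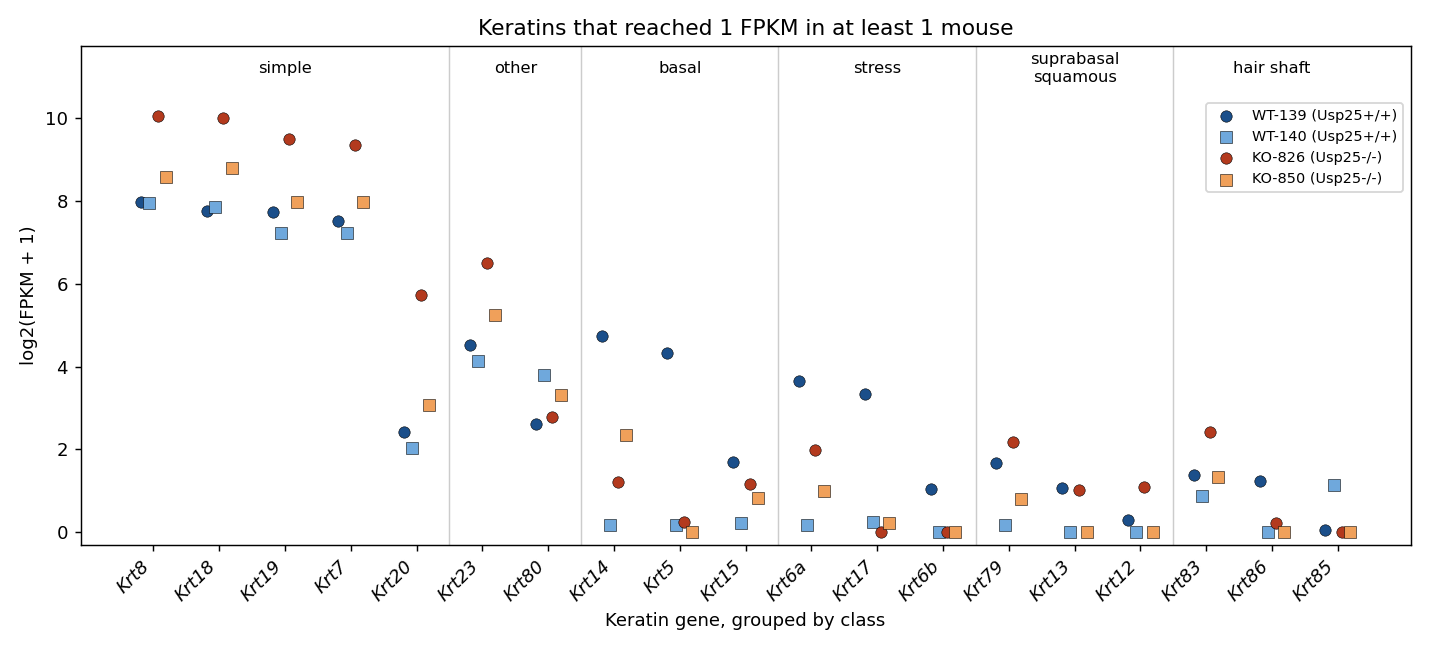
Level of each of the 19 keratins that reached 1 FPKM in at least 1 mouse, as log2(FPKM + 1), grouped by class. Each point is 1 mouse, and there are no error bars. The 5 simple keratins and Krt23 are higher in both Usp25-/- mice, while Krt5, Krt14, Krt6a and Krt17 are high in mouse WT-139.

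General epithelial genes were also highest in mouse KO-826. All 13 listed genes were tested, 13 of 13 had a positive difference, 9 did not overlap between the groups and 0 passed the threshold. Over all tested genes, 19% were higher and 14.7% lower in both Usp25-/- mice without overlap. The list's median log2 difference was 0.90, against 0.03 over all tested genes. Epcam, an adhesion molecule of epithelial cells, was at 57.8 and 35.8 against 205 and 69.9 FPKM. Cldn7, a tight junction protein, was at 25.6 and 26.7 against 132 and 52.3 FPKM, and Rab25, a vesicle GTPase of epithelia, was at 10.1 and 9.55 against 35.5 and 18.3 FPKM. Log2 differences were 1.38 for Epcam, 1.63 for Cldn7, 1.30 for Rab25, 1.36 for Spint2, a protease inhibitor, and 0.97 for the claudin Cldn4, each at an adjusted p of 0.968 by limma. For Cdh1, the cadherin of epithelial junctions, it was 0.71, also at 0.968.

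Ratios of keratins to these genes separated the genotypes for some denominators and not for others. Summed keratin FPKM was 16.8 and 22.8 times Epcam in mice WT-139 and WT-140 and 17.8 and 19.9 times in mice KO-826 and KO-850, so the groups overlapped. Against Cdh1 it was 26.4 and 32.9 times in Usp25+/+ and 58.4 and 34.5 times in Usp25-/-, and against the summed general epithelial genes the simple keratins were 2.05 and 2.14 against 2.76 and 2.46 times. The groups did not overlap in these 2 ratios. The mesothelial gene Msln was at 46.3 and 32.4 against 138 and 74.1 FPKM, and the mesothelial markers without their keratin members summed to 51.2 and 35.0 against 142 and 88.1 FPKM. Of the latter sum's 6 genes none was at 0 in all mice and 2 were below 1 FPKM in every mouse. Upk1b was at 3.19 and 0.723 against 1.95 and 6.52 FPKM and Upk3b at 0.864 and 1.44 against 1.43 and 5.40 FPKM, so both were highest in mouse KO-850, unlike the simple keratins. The part of epithelial, gastric or mesothelial cell content in the keratin levels was not tested.

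**Figure D2:**
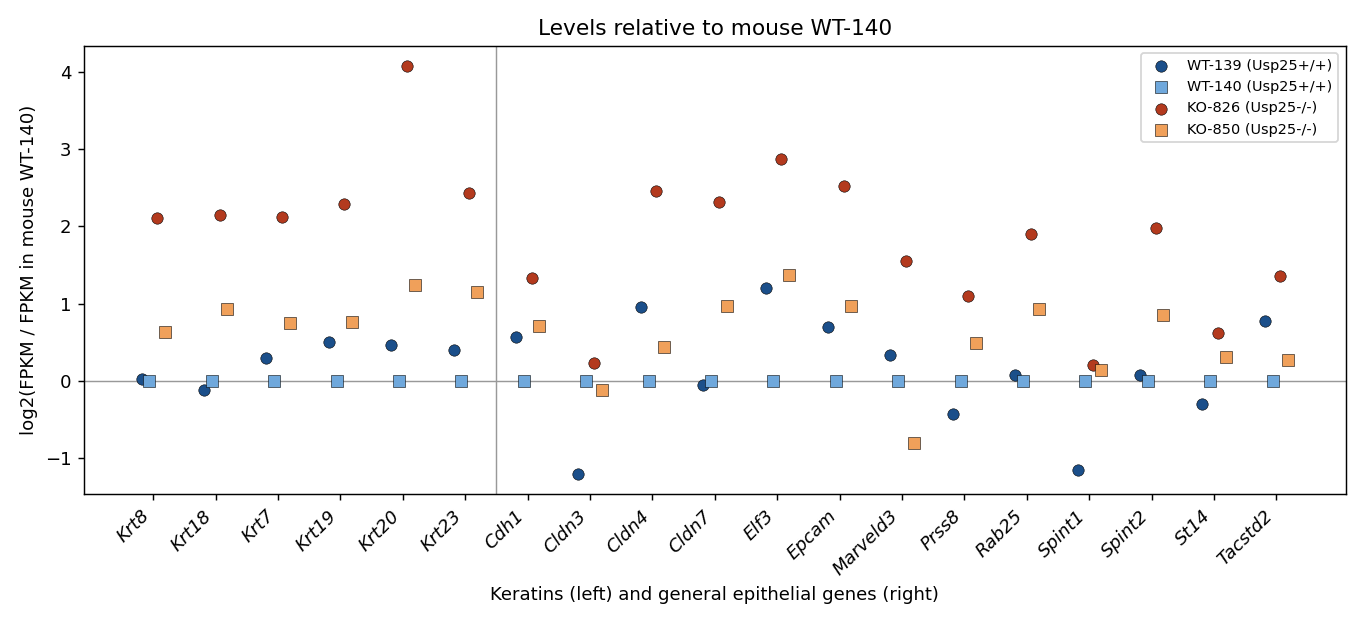
Level of 6 keratins (left) and 13 general epithelial genes (right) in each mouse, as the log2 ratio to mouse WT-140, which is 0 by construction. Each point is 1 mouse. Mouse KO-826 is the highest for each of the 6 keratins, and the same is seen for each of the 13 epithelial genes.

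The basal keratins showed a different pattern, being high in 1 Usp25+/+ mouse and near 0 in the other. Krt5, the type II keratin of basal cells (chr15:101537501-101543322, minus strand), was at 19.0 FPKM in mouse WT-139, 0.130 in mouse WT-140, 0.191 in mouse KO-826 and 0 in mouse KO-850. Its partner Krt14 (chr11:100064476-100068862, minus strand) was at 25.6, 0.134, 1.33 and 4.05 FPKM in the same order. Krt15, another type I keratin of basal cells, was at 2.22, 0.165, 1.24 and 0.770 FPKM. Every basal keratin was thus highest in mouse WT-139 and, apart from Krt5, lowest in mouse WT-140.

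The class summed to 46.8 and 0.429 FPKM in Usp25+/+ and to 2.76 and 4.82 FPKM in Usp25-/-, and it made up 4.81% of keratin FPKM in mouse WT-139 and 0.0527% to 0.346% in the others. The group means, 23.6 ± 32.8 and 3.79 ± 1.46 FPKM (SD, n = 2), differed by less than the spread within Usp25+/+. Krt5 and Krt14 were in a ratio of 0.744 in mouse WT-139. In mouse KO-850 Krt14 was present with Krt5 at 0. Krt14 differed between genotypes by -0.68 ± 1.47 (log2 ± SE), at a limma adjusted p of 0.977, and Krt15 by 0.04 ± 0.56. The Krt14 difference was 1.60 without mouse WT-139 and -2.95 without mouse WT-140. Krt5 did not reach 1 FPKM in 2 mice and was not tested.

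Stress keratins were, like the basal ones, highest in mouse WT-139. Krt6a (chr15:101520363-101524738, minus strand), the inducible type II keratin of wounded epithelium, was at 11.5 FPKM in mouse WT-139, 0.126 in mouse WT-140, 2.94 in mouse KO-826 and 0.994 in mouse KO-850. Krt17 (chr11:100117531-100122343, minus strand), its type I counterpart in wound edges, was at 9.08, 0.188, 0 and 0.171 FPKM. Krt6b (1.05 FPKM) and Krt16 (0.146 FPKM) were above 0 in mouse WT-139 alone. Krt6a was therefore found in the Usp25-/- mice at 2.94 and 0.994 FPKM with little or none of its type I partners Krt16 and Krt17.

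Krt6a differed by -0.42 ± 1.15 (log2 ± SE), at a limma adjusted p of 0.982, and was the only member of its class tested. Krt6a and Krt6b share 47.9% and 47.3% of their 50-base stretches with other genes, mostly with each other. The split of fragments between them is therefore uncertain, as is that of Krt14, which shares 14.4%, mostly with Krt16. Krt7, Krt8, Krt18, Krt19, Krt20 and Krt23 share 0% with any other keratin.

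The low values of the basal and stress keratins can be read against the depth guide. In mouse WT-140, FPKM times transcript length for Krt5, Krt6a, Krt15 and Krt17 was 1.00, 0.999, 0.985 and 1.03 times the smallest regular step of that library, and for Krt14 it was 0.801 times. In mouse WT-139 the same genes, Krt5, Krt6a, Krt15, Krt17 and Krt14, stood at 183, 114, 16.6, 61.8 and 190 steps. Krt14 was at 17.9 steps in mouse KO-850 and Krt6a at 18.5 in mouse KO-826. A step need not be a single fragment, so these are rough. Each of the 5 genes was thus at about 1 step in mouse WT-140 and at 16.6 steps or more in mouse WT-139.

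Some markers of other cells were also highest in mouse WT-139, and others were not. Trp63, the transcription factor of basal cells, chosen after its values were seen, was at 1.12 FPKM there and at 0 to 0.277 FPKM in the other 3 mice. Airway markers without Krt5 summed to 2718 FPKM in mouse WT-139 and to 393 to 853 FPKM in the others, mostly through Bpifa1 (1653 against 24.8 to 32.5 FPKM), a secreted protein of upper airway epithelium. Scgb1a1, Scgb3a1, Cyp2f2 and Bpifb1 were also highest in mouse WT-139, all but Scgb1a1 chosen after their values were seen. The other airway genes, likewise chosen, had another order. Scgb3a2 was highest in mouse KO-850, Foxj1 in mouse WT-140 (5.34 against 2.72 FPKM in mouse WT-139), and Sec14l3 was lowest in mouse WT-139. Neutrophil markers, led by S100a8 and S100a9, were highest there, as given above, while the sums of the alveolar (1704 FPKM) and macrophage markers (7493 FPKM) were lowest there. The part of these cells in the basal and stress keratin levels was not tested.

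**Figure D3:**
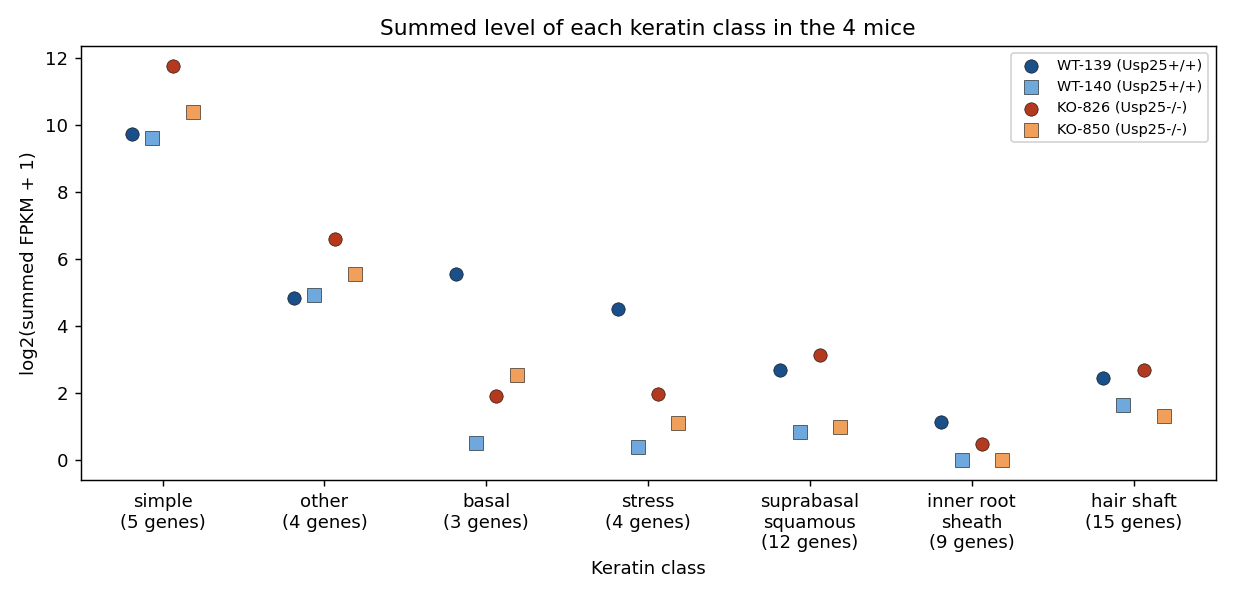
Summed FPKM of each keratin class in each mouse, as log2(summed FPKM + 1), with the number of genes in each class. Each point is 1 mouse, and there are no error bars. Simple keratins separate the genotypes, while the basal and stress sums separate mouse WT-139 from the other 3.

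The suprabasal squamous class had 12 members, of which 3 reached 1 FPKM in any mouse, and its sum was 5.48 and 0.805 FPKM in Usp25+/+ and 7.89 and 1.01 FPKM in Usp25-/-. Krt79, a type II keratin of the hair follicle duct and sebaceous gland, was at 2.17 and 0.136 against 3.56 and 0.735 FPKM. Krt13, a keratin of the oral and oesophageal lining, was at 1.08 and 0 against 1.02 and 0 FPKM. Krt12, the type I keratin of the cornea, was at 0.222 and 0 against 1.12 and 0 FPKM. In this class the mice WT-139 and KO-826 were the higher mouse of their genotype for each of these 3 genes.

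Krt12 lies 6143 bases from Krt20 in mm9, and mouse KO-826 was the highest mouse for both. Krt4, the partner of Krt13, was at 0.774 and 0 against 0.313 and 0 FPKM, and Krt78, of upper squamous layers, at 0.0511 and 0 against 0.942 and 0.271 FPKM. The epidermal pair Krt1 and Krt10 stayed below 1 FPKM in every mouse, as did Krt2, Krt9, Krt24 and Krt77, and Krt76 was at 0 in all 4. Krt79 differed by 0.57 ± 0.70 and Krt13 by -0.02 ± 0.56 (log2 ± SE), with adjusted p of 0.968 and 0.999 by limma.

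Hair keratins were low, most of them at the edge of detection. Krt83 stood at 12.8 and 5.32 against 22.0 and 7.19 steps of the depth guide. The 15 hair shaft genes summed to 4.51 and 2.14 FPKM in Usp25+/+ and to 5.44 and 1.51 FPKM in Usp25-/-, and 12 of them were below 1 FPKM in every mouse. Krt83 was at 1.59 and 0.829 against 4.31 and 1.51 FPKM, Krt86 at 1.35 and 0 against 0.173 and 0 FPKM, and Krt85 at 0.0298 and 1.19 against 0 and 0 FPKM. Of the 9 inner root sheath and companion layer genes, each was below 1 FPKM in every mouse, and the class was at 0 throughout mice WT-140 and KO-850. Krt26, Krt72 and Krt74 of that class were at 0 in all 4 mice, as were Krt32, Krt33a and Krt82 of the hair shaft. The remaining genes outside these classes, Krt42 and Krt222, were highest in mouse WT-139, at 0.155 and 0.609 FPKM.

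Krt83 (chr15:101261921-101269235, minus strand) was the one hair keratin found in all 4 mice, and it lies 1176 bases from the end of Krt7, which runs toward it on the other strand. It was 0.870% and 0.554% of Krt7 against 0.662% and 0.598%, while Krt7 itself ranged from 150 to 652 FPKM. Whether the counting used strand is not given in the sources used here, and reads from either gene may not be told apart where their transcripts meet. Krt83 also shares 21.1% of its 50-base stretches, mostly with Krt81. Krt81 and Krt86 each share 43.2% with other genes, mostly with each other. The log2 difference of Krt83 was 0.75 ± 0.47 (SE), with an adjusted p of 0.968 by limma.

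How many keratins were seen at all differed between mice. The number at 0 was 10 of 52 in mouse WT-139, 35 in mouse WT-140, 23 in mouse KO-826 and 38 in mouse KO-850, which is 19.2%, 67.3%, 44.2% and 73.1%. Over all genes the shares were 15.8%, 36.1%, 29.4% and 35.3% in the same order. Mouse WT-139 was the highest mouse for 26 of the 52 keratins and the only one above 0 for 13. In all, 19 keratins reached 1 FPKM in at least 1 mouse, 33 did not, and 7 were at 0 in each mouse. An FPKM of 0 can also be a failed estimate, and the part of depth in these counts was not tested.

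**Figure D4:**
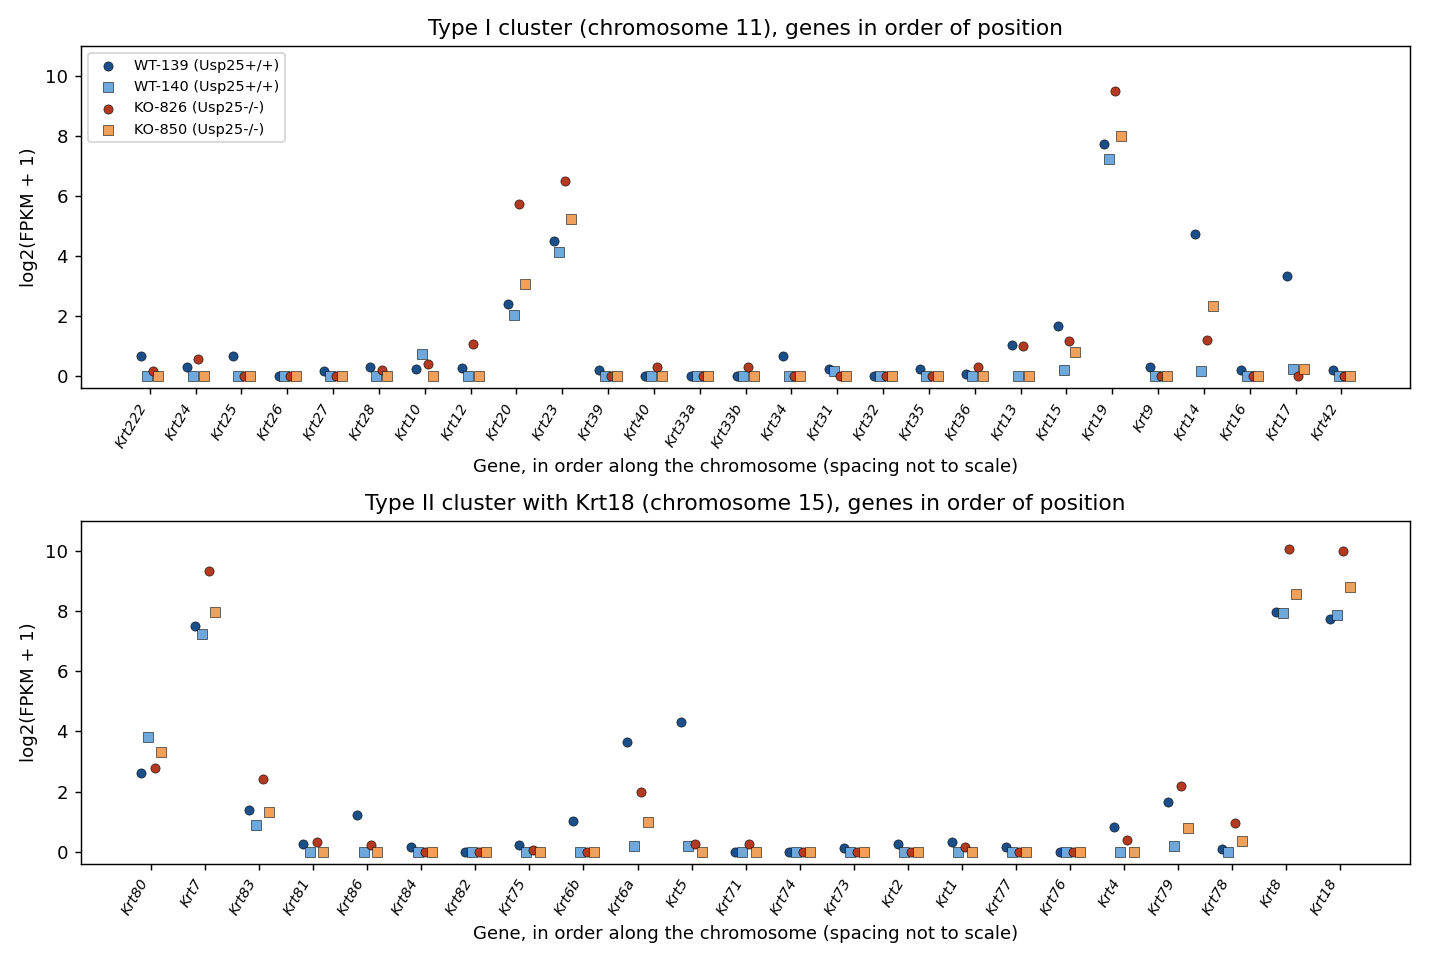
Level of the 50 placed keratins in each mouse, as log2(FPKM + 1), in order along the type I cluster (upper panel) and the type II cluster with Krt18 (lower panel). Each point is 1 mouse, and spacing is not to scale. High genes sit in separate places in each cluster, with Krt19 beside Krt15 and with Krt7 beside Krt83, and long runs of hair keratins between them are near 0.

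Position in the clusters did not sort the genes by level. Krt8 and Krt18 are next to each other, 23873 bases apart, and both were among the highest keratins in every mouse. Krt19 lies 4860 bases from Krt15, yet Krt19 was highest in mouse KO-826, at 727 FPKM, and Krt15 in mouse WT-139, at 2.22 FPKM. Krt5 and Krt6a, 12762 bases apart, were both highest in mouse WT-139, while Krt20 and Krt23, 39823 bases apart, were both highest in mouse KO-826.

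Type I and type II RNA were nearly balanced in every mouse. Type I keratins summed to 494 and 402 FPKM in Usp25+/+ and to 1906 and 746 FPKM in Usp25-/-, and type II to 479 and 412 against 1737 and 647 FPKM. The ratio of type I to type II was 1.03 and 0.977 in mice WT-139 and WT-140 and 1.10 and 1.15 in mice KO-826 and KO-850. The 2 Usp25-/- mice thus had slightly more type I than type II RNA.

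Summed over the family, keratin RNA was 973 and 814 FPKM in Usp25+/+ and 3643 and 1393 FPKM in Usp25-/-. The means were 893 ± 112 and 2518 ± 1591 FPKM (SD, n = 2), a ratio of 2.82, or 1.49 on the log2 scale. Without mouse KO-826 the ratio was 1.56. An exact permutation test of 2 mice against 2 cannot give a p below 0.333, so the sum was not tested.

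By gene, 13 keratins reached 1 FPKM in at least 2 mice and were tested, among the 12103 genes tested in all. None of the 13 passed an adjusted p of 0.05 by limma, against 0% of all tested genes. Limma's unadjusted p was under 0.05 for 2 of the 13, Krt18 and Krt23, against 3.3% of all tested genes. With the columns rescaled to a common total that count was 5 of 13, beside 455 of the 13304 genes then tested. With median-of-ratios scaling it was 2 of 13, beside 389 of 12113. Leaving out mouse WT-140 gave 163 calls, 1.38% of the genes then tested, and 0 of them were keratins.

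Of the 13, 6 were higher in both Usp25-/- mice with no overlap between the groups, namely Krt7, Krt8, Krt18, Krt19, Krt20 and Krt23, against 19% of all tested genes. Lower in both Usp25-/- mice were 0 of 13, against 14.7%. That count was 4 of 13 without mouse WT-140 and 1 of 9 without mouse WT-139. Groups separate more easily with 1 mouse left in a genotype. The share over all genes was not counted there, so these 2 counts cannot be set against 14.7%. Among all 52 keratins, untested ones included, 7 were higher (Krt78 in addition) and 3 lower without overlap (Krt17, Krt31 and Krt85). The share over all 24394 genes was not counted. These untested genes rest on low values, with Krt78 at 0.0511 and 0 FPKM and Krt31 at 0.194 and 0.128 FPKM in Usp25+/+. The lower Usp25+/+ value was 0.188 FPKM for Krt17 and 0.0298 FPKM for Krt85. The 13 had 9 positive differences and a median log2 difference of 0.75, beside 0.03 over all tested genes. These 13 had to reach 1 FPKM in 2 mice, and the other 39 keratins are not represented in that median. With no filter on low values 45 keratins entered and the median was -0.08. Leaving out mouse KO-826 brought the 6 differences to between 0.51 (Krt19) and 0.99 (Krt18), and leaving out mouse KO-850 to between 1.97 (Krt7) and 3.51 (Krt20). Leaving out each mouse in turn gave medians between 0.49 (13 keratins, without WT-140) and 1.52 (9 keratins, without WT-139). Krt13, Krt15, Krt6a and Krt79 fell below the filter without WT-139, so these medians are not of the same genes. The p-values rest on these 4 mice alone. They set a difference between genotypes against the spread within genotypes, which limma adjusts using all tested genes.

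Genes for proteins that anchor keratin filaments were counted next. Of 16 desmosome genes, which tie keratins to cell junctions, 8 were tested, 8 of 8 had a positive difference, and the median log2 difference was 0.40. Higher without overlap were 2 of the 8, near the 19% of all tested genes. The plakophilins Pkp2 and Pkp3 were at 4.83 and 4.61 against 11.1 and 6.11 FPKM and at 4.67 and 4.74 against 11.4 and 6.10 FPKM, with log2 differences of 0.70 and 0.72. Perp and Jup, the most abundant of the list, differed by 0.40 and 0.14. Of 10 hemidesmosome and cytolinker genes 8 were tested, 5 positive and 3 negative, with a median of 0.25.

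The integrin chain Itga6 of that list was at 12.1 and 12.0 against 26.6 and 17.8 FPKM, with a log2 difference of 0.80, and its partner Itgb4 differed by 0.74. The linker Dst was lower in both Usp25-/- mice, at 9.84 and 6.73 against 5.10 and 6.00 FPKM, with a log2 difference of -0.49. Cd151 and the keratin linker Plec differed by 0.30 and -0.03. In neither list did any gene pass the threshold by limma.

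Cornified envelope genes, which harden the outer squamous layer, were seen in a few members. Of 22 measured genes 7 were tested, 5 positive and 2 negative, 3 were higher without overlap (19% of all tested genes were) and 0 passed, with a median log2 difference of 1.28. Sprr2a1, a small proline-rich protein, was at 29.4 and 9.85 against 238 and 41.4 FPKM, though its near-identical copies make the split of fragments uncertain. Ivl, the envelope protein involucrin, was at 2.08 and 0.906 against 29.3 and 2.43 FPKM, and Tgm1, the enzyme that cross-links the envelope, at 11.9 and 8.89 against 38.7 and 17.9 FPKM. Their log2 differences were 2.47, 2.07 and 1.28, and those of Sprr2a3 and Sprr1a were 1.80 and 1.06, none of which passed. Mouse KO-826 was the highest for each of these 5 genes, whereas the basal keratins were highest in mouse WT-139. Sprr2a2, another copy of Sprr2a1, chosen after its values were seen, was at 11.1 and 4.43 against 14.8 and 0.00251 FPKM. Its log2 difference was -1.02, so the copies did not share a direction.

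Among epithelial transcription factors, 13 of 18 were tested, 12 positive and 1 negative, 5 were higher without overlap (19% of all tested genes were) and 0 passed, with a median of 0.61. Elf3, an ETS factor of epithelia, was at 20.4 and 8.85 against 65.0 and 23.0 FPKM (log2 difference 1.45). Foxa2, a factor of endoderm-derived epithelia, was at 2.81 and 5.06 against 10.1 and 7.86 FPKM (1.05). Ovol2 differed by 0.90, Nkx2-1, the lung and thyroid factor, by 0.44, and Klf4 by -0.21.

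Genes of the keratin binding and phosphorylation list numbered 11, and 11 of 11 were tested, with 7 positive and 4 negative. Without overlap, 3 were higher and 1 lower, near the 19% and 14.7% of all tested genes. Sfn, a 14-3-3 protein of epithelial cells, was at 52.3 and 83.2 against 356 and 109 FPKM, with a log2 difference of 1.57. Ywhaz, a 14-3-3 protein of many tissues, was at 80.4 and 80.1 against 64.2 and 52.8 FPKM, with a log2 difference of -0.46. The keratinocyte-associated genes Krtcap3 and Krtcap2 differed by 1.75 and 0.87. The other intermediate filament genes, 7 of 16 tested, had a median of 0.15 with 5 positive and 2 negative. Vim, the filament protein of mesenchymal and immune cells, was at 648 and 1018 against 819 and 997 FPKM, with a log2 difference of 0.15, and the lamins Lmna and Lmnb1 differed by 0.66 and -0.63. None of these genes passed the threshold by limma.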

How the data were processed

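Polyadenylated RNA of 4 mice was sequenced with Illumina chemistry, per the labels' protocols. The authors deposited 1 table of FPKM values with a column per mouse. Per the submitters' processing notes, Bowtie 0.12.2 and the build mm9 were used, and the sources used here do not give the quantifier, annotation or strandedness. Of 24421 rows, 27 whose symbols had become dates were left out.

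The test used log2(FPKM + 1), on which differences of low genes are understated. Genes at 1 FPKM or more in at least 2 mice (12103) were fitted together with limma 3.58.1 (R 4.3.3), using a mean-variance trend, a two-sided test, Benjamini-Hochberg adjustment over all tested genes and a threshold of 0.05. No pairing is recorded, and no block was used. Limma's code was tested on simulated data. Python 3.11.15 with pandas 2.3.3 gave sums, ratios, positions and motif matches, and matplotlib 3.10.9 the plots. Gene positions come from Gencode on mm9 and promoter windows from RefSeq on GRCm38.p6, and no coordinates were converted between builds. Shared 50-base stretches were counted over protein-coding Gencode transcripts. The depth guide is the commonest value of FPKM times length over 7789 genes with 1 transcript, and 4.06% to 10.2% of the low values lay on it.

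The keratins, their classes and the other lists were chosen with earlier results of these data known. Every keratin at 1 FPKM or more in any mouse was named with its 4 values. From each partner list up to 4 genes of highest mean and up to 3 of smallest p were named, and from each marker list up to 3 of highest mean (keratins aside) and those at 0. Alternatives covered the pseudocount, the filter, 2 scalings, the variance trend and leaving out each mouse in turn.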

Additional observations from a re-analysis of the deposited data

How the results depend on the processing

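No keratin passed the threshold under any of the alternatives tried. The number higher without overlap was 6 of 13 with either scaling and 7 of 52 with no filter. With a mouse left out it was 6 of 9 (KO-826), 7 of 13 (WT-140), 8 of 9 (WT-139) and 8 of 13 (KO-850). Groups separate more easily with 1 mouse left in a genotype. Shares over all genes were not counted under these alternatives, so the counts are not a measure of stability. The log2 ratio of total keratin level, 1.49, was 0.64 without mouse KO-826 (a ratio of 1.56) and 0.64 to 2.03 over the mice left out in turn. Calls over all genes went from 0 to between 0 and 163, and 163 came without mouse WT-140, when Usp25 (-3.65) and Lmnb1 (-2.36) also passed. Of 109 log2 differences of keratins under alternatives, 100 kept their sign and side of the threshold and 9 changed sign, in 6 genes. Dropping the filter or the variance trend cannot change a log2 difference, and no keratin passed in any fit. These counts, and those of other genes given below, therefore do not measure stability. Without mouse KO-826 and without mouse KO-850, the differences were 0.61 and 2.09 for Krt8, 0.99 and 2.20 for Krt18, 0.61 and 1.97 for Krt7, 0.51 and 2.03 for Krt19, 0.84 and 3.51 for Krt20 and 0.92 and 2.17 for Krt23. Limma's unadjusted p was under 0.05 for 3 of 13 keratins with a pseudocount of 0.1, beside 401 of 12103 genes. After rescaling to a common total it was under 0.05 for 5 of 13, beside 455 of 13304 genes. With median-of-ratios scaling it was so for 2 of 13, beside 389 of 12113 genes. With no variance trend it was so for 2 of 13, beside 401 of 12103, and with no filter for 3 of 45, beside 571 of 21761. With each mouse left out in turn, Krt14 ranged from -2.95 to 1.60 and Krt80 from -0.76 to 0.43. Krt13, Krt15, Krt6a and Krt79 fell below the filter without mouse WT-139 and without mouse KO-826, so no difference is given there. Without WT-140 and without KO-850, Krt13 was at -0.55 and 0.49 and Krt15 at -0.70 and 0.21. In the same order Krt6a was at -2.16 and 0.068 and Krt79 at -0.17 and 1.26. A pseudocount of 0.1 gave 0.17 for Krt6a, and median-of-ratios scaling gave -0.0023 for Krt15. Among 297 such values of other genes 13 changed sign, all with a mouse left out. The ranges were -0.057 to 0.86 for Perp, -0.23 to 0.50 for Jup, -0.18 to 0.77 for Cd151, -0.090 to 0.033 for Plec, -0.049 to 2.18 for Sprr1a, -0.17 to 0.48 for Vim, -0.054 to 1.37 for Lmna, -2.36 to 1.10 for Lmnb1, -0.74 to 0.32 for Klf4, -0.025 to 0.90 for Nkx2-1 and -0.034 to 1.97 for Cldn4. With 1 mouse left in a genotype, limma takes its spread from the other genotype. The cause of these shifts was not tested. No paired analysis was possible because no pairing of the mice is recorded. Unknown depth limits what can be said of keratins below 1 FPKM.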
